A study of Mus musculus with 26 samples.

Results

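The Ms4a genes (membrane-spanning 4-domains, subfamily A) encode small proteins that cross the plasma membrane and sit beside receptors on blood-derived and tissue-resident immune cells. The best-known relatives are Ms4a1, the B cell antigen CD20, and Ms4a2, a chain of the high-affinity IgE receptor of mast cells. Ms4a6b, Ms4a6c, Ms4a6d and Ms4a7 are known mainly as transcripts of macrophages and of activated microglia, whereas Ms4a4b is known from T cells. Microglia are the resident macrophages of the retina, and in a degenerating retina they are joined by macrophages from the blood.

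Of the 7 genes asked for, 6 were found among the 37991 genes of the count table by matching Ensembl gene identifiers to mouse symbols, taking the identifier with the highest mean count where a symbol had several. These are Ms4a6b (ENSMUSG00000024677), Ms4a6c (ENSMUSG00000079419), Ms4a6d (ENSMUSG00000024679), Ms4a7 (ENSMUSG00000024672), Ms4a4b (ENSMUSG00000056290) and Ms4a4c (ENSMUSG00000024675). Ms4a4a had no matching identifier, and no value is given for it. The family was chosen by its measured values: Ms4a6d had been seen among the strong falls of the UNC1999 comparison, so values of that comparison are a description and carry no p-value.

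The study asked whether inhibitors of chromatin enzymes change transcription in rd10 mice, which lose their rods because of a mutation in Pde6b, a subunit of the rod phosphodiesterase. RNA was counted in 26 libraries of 5 experiments, all collected at PN24 after intraperitoneal injections from PN9. Each inhibitor had its own controls, injected with saline except where the UNC1999 controls are described below. Whole retinas of the B6.CXB1-Pde6brd10/Jrd10 line were taken in 4 experiments. DZNep, an S-adenosylhomocysteine hydrolase inhibitor used against EZH2, was given at 1.5 mg/kg and later, on alternate days, at 1 mg/kg (2 treated retinas, 4 controls). UNC1999, an inhibitor of the H3K27 methyltransferase EZH2, was given at 15 mg/kg in a vehicle with DMSO (3 treated, 3 controls). The study names saline for these controls in its text and diluent in a figure legend. Whether they received the vehicle is thus unclear, and if not, its effect cannot be told apart from that of UNC1999. UNC0642, an inhibitor of the H3K9 methyltransferases EHMT2 and EHMT1, was given at 7.5 mg/kg (2 treated, 2 controls). Romidepsin, an inhibitor of histone deacetylases, was given at 0.2 mg/kg (3 treated, 3 controls). In the fifth experiment rods were sorted by EGFP from rd10 mice crossed to B6.Cg-Tg(Nrl-EGFP)1Asw/J, in which the rod promoter of Nrl drives EGFP, after 4.2 mg/kg of the LSD1 inhibitor GSK2879552 (2 treated, 2 controls). These 4 libraries were made with another kit from far less RNA than the retinas, so their levels are not set against those of retinas. The ending of this genotype label counts up from sample to sample in some experiments, and groups were taken from the sample titles. The labels do not say whether replicates are separate animals, so the tests measure the spread between these libraries.

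Retina libraries held 13732959 to 36354094 gene counts and rod libraries 7289460 to 19864491. Levels are given as CPM, the counts per 1000000 counts of the library after scaling by trimmed mean of M-values. Detection was taken as uncertain at 3 counts or fewer, which is 0.0875 to 0.223 CPM in a retina and 0.156 to 0.401 CPM in a rod library. These limits cover counting error only. The UNC0642 controls stood apart from the other control retinas. Their summed CPM of 10 rod genes was 8780 to 8958, against 15066 to 36197 in the others, and their summed CPM of the microglia and macrophage list (28 genes, of which 27 were matched) was 1180 and 1700, against 387 to 1229. In whole retinas, fewer cells of a type and less RNA per cell cannot be told apart.

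All 6 genes lie together on chromosome 19 (NCBIM37), in the order Ms4a7 (11395529-11410636, minus strand), Ms4a4c (11479260-11501736, plus), Ms4a4b (11518043-11538039, plus), Ms4a6c (11543858-11556687, plus), Ms4a6b (11591002-11605746, plus) and Ms4a6d (11661094-11679339, minus). No other annotated gene overlaps any of them. As paralogs they share sequence, which can make reads ambiguous. Of all 50-base stretches of their exons, 6.78% in Ms4a6c, 3.44% in Ms4a6b and 2.69% in Ms4a6d also occur in transcripts of other genes, and for Ms4a6c the main partner was Ms4a6b. The share was 5.32% in Ms4a4b and 4.96% in Ms4a4c, which were each other's partner, and 0.0% in Ms4a7.

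The stretches of 250 bases before the RefSeq gene start were read for the members that RefSeq lists with a promoter sequence (GRCm38.p6), and each was placed on NCBIM37 by a single exact match. Ms4a6d was not in that table. As a description of these windows, 3 motifs of myeloid and inflammatory transcription factors were looked for on both strands. They were AGGAAGT, letters bound by PU.1 and other ETS factors, the interferon-stimulated response element bound by IRF factors, and TTGCNNAA of C/EBP factors. AGGAAGT or its reverse complement ACTTCCT occurred 2 times in the Ms4a6b window, 1 time in that of Ms4a6c and 0 times in those of Ms4a7 (both of its starts), Ms4a4b and Ms4a4c, and at least 1 time in 7.69% of all 32851 promoter windows. The other motifs, whose letters can overlap it in part, occurred in 2.98% and 9.56% of all windows and in none of these genes. The windows of Ms4a6b and Ms4a6c share a run of 48 identical bases that holds AGGAAGT. Those of Ms4a4b and Ms4a4c share a run of at most 20 bases, and at that offset 57.5% of 247 aligned bases are identical. Only these exact letters were looked for, so a count of 0 does not mean that other letters bound by ETS factors are absent. A match of letters is a description of the sequence and not a binding site. They are shown 5′ to 3′ on the strand of each gene, with AGGAAGT in capitals, to let the related promoters of strongly and weakly counted genes be compared. Ms4a6c is given whole, Ms4a6b as the 30 bases around the motif, and Ms4a7 at its outer start. Of the Ms4a6b window, 106 bases lie in annotated exons, and the 30 bases shown may be among them. The RefSeq starts used for Ms4a6b and Ms4a4c lie 2047 and 2891 bases inside the annotated genes.
Ms4a6c, chr19:11543608-11543857, plus: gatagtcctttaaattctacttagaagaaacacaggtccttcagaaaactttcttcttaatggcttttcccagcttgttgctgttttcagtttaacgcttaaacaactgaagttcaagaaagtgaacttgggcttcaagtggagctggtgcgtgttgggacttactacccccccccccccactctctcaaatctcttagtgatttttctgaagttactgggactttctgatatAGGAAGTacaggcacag
Ms4a6b, chr19:11592949-11592978, plus: ggactttctgatatAGGAAGTacaggcaca
Ms4a7, chr19:11410637-11410886, minus: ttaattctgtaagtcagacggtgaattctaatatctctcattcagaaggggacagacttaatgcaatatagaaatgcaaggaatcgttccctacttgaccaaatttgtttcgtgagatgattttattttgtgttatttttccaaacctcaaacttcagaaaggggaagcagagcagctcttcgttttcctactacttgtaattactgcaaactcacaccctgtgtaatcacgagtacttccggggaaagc
Ms4a4c, chr19:11481901-11482150, plus: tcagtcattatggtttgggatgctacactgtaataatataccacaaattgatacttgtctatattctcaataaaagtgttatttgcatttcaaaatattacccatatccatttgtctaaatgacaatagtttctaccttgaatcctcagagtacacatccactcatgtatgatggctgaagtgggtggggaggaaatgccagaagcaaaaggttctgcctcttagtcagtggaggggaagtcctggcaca
Ms4a4b, chr19:11517798-11518042, plus: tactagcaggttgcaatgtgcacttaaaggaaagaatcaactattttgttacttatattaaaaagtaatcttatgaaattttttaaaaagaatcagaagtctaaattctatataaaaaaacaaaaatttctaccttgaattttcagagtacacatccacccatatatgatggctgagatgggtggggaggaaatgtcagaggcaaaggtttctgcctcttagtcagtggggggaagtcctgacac

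Ms4a6b, Ms4a6c, Ms4a6d and Ms4a7 were above 3 counts in each of the 12 control retinas, whereas Ms4a4b was at 2 counts in 3 of them and Ms4a4c at 3 counts in 1. Every one was a low-abundance transcript that varied widely. Ms4a6c ranged from 0.736 to 17.0 CPM with a median of 4.18, Ms4a6d from 0.414 to 12.3 with a median of 2.49, and Ms4a7 from 0.667 to 7.77 with a median of 2.17. Ms4a6b ranged from 0.322 to 8.22 CPM with a median of 1.82. Ms4a4c ranged from 0.115 CPM, which is 3 counts, to 9.16 CPM with a median of 1.30. The highest control of Ms4a7 was 11.6 times its lowest, and that of Ms4a6d 29.8 times. Ms4a4b stayed between 0.0911 and 1.11 CPM, on 2 to 27 counts. For each gene the highest control retina was 1 of the 2 UNC0642 controls. Corrected for exon length, the order of the medians was Ms4a6c (2.26 CPM per kb), Ms4a6d (1.44), Ms4a4c (0.745), Ms4a7 (0.486), Ms4a6b (0.406) and Ms4a4b (0.0543). The ranges of all neighbours in this order overlapped.

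**Figure D1:**
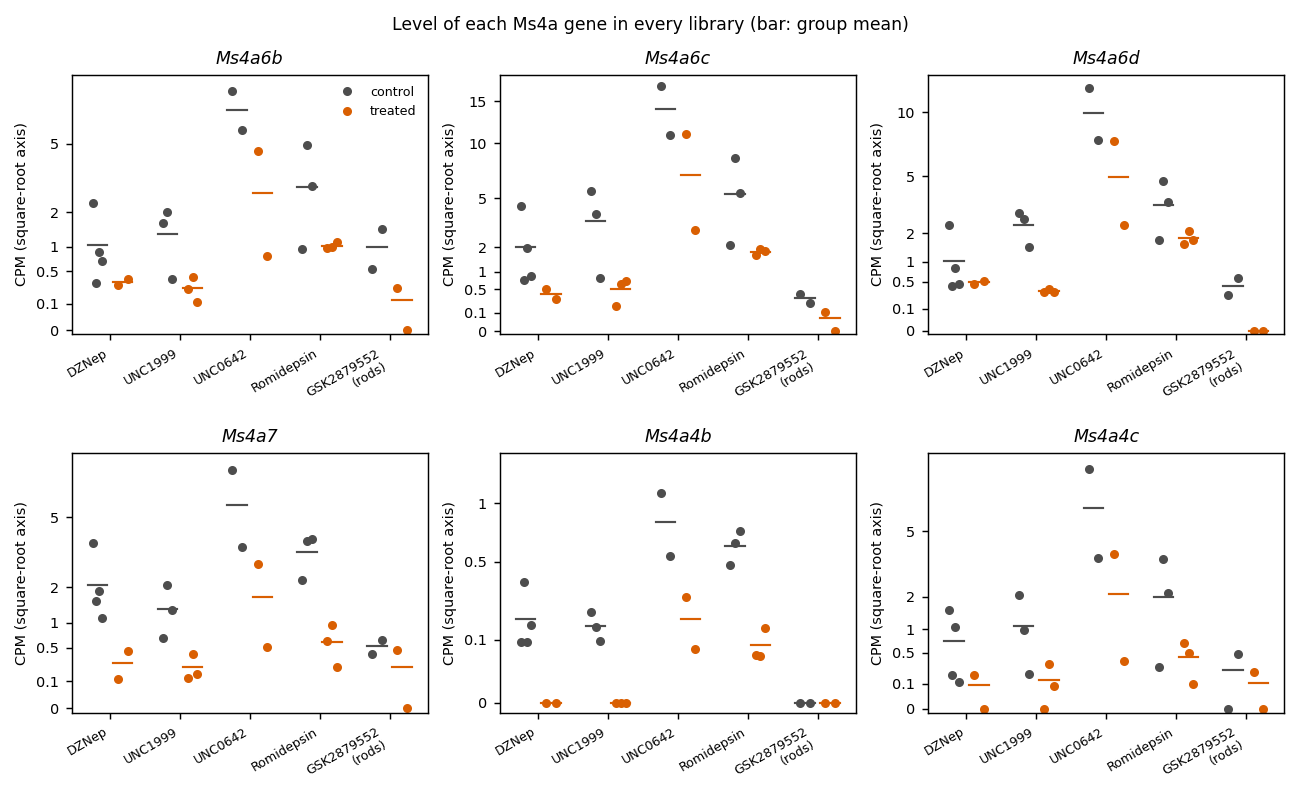
Level of each Ms4a gene (CPM, square-root axis) in every library, by experiment on the x axis, with controls in grey, treated libraries in orange and a bar at the group mean. The Ms4a7 points of treated retinas lie below those of their own controls in all 4 retina experiments, and all genes are highest in the UNC0642 controls.

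Ms4a7, known from tissue macrophages more than from resting microglia, was the only one that passed the test in any experiment. After DZNep its level was 0.117 and 0.447 CPM, on 4 and 6 counts, against 3.73, 1.56, 1.89 and 1.11 CPM in the controls. Both treated retinas were thus below every control, and the highest control was replicate 1. With so few treated counts, Ms4a7 passed the filter on low counts through its controls, so its test here is given as a description. The log2 fold change was -3.19 ± 0.71 (SE), with an adjusted p of 0.0137 (edgeR quasi-likelihood test, Benjamini-Hochberg over 16477 genes). Of all genes tested in this comparison, 0.686% were called lower, meaning an adjusted p under 0.05 and a log2 fold change under -1. The call ended without treated replicate 1, where the log2 fold change was -2.19 and the adjusted p 0.180, and over all alternatives the adjusted p ran from 2.11e-05 to 0.180.

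Romidepsin gave the second call for Ms4a7. Treated retinas had 0.622, 0.938 and 0.233 CPM, on 11, 17 and 5 counts, and controls had 2.26, 3.85 and 3.90 CPM. The groups did not overlap, and the lowest control was well above the highest treated retina. With 5 counts in treated replicate 3, Ms4a7 needed its controls to pass the filter on low counts here too. Its test in this experiment is therefore also given as a description. The log2 fold change was -2.51 ± 0.44 (SE), and the adjusted p of 0.0490 (edgeR quasi-likelihood test) lay at the threshold. In this comparison 0.156% of 16049 genes tested were called lower. Without control replicate 2, control replicate 3, treated replicate 1 or treated replicate 3 the adjusted p was 0.148, 0.150, 0.0560 and 0.147, with log2 fold changes of -2.39, -2.38, -2.55 and -2.09. Over all alternatives it ran from 4.22e-06 to 0.150.

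UNC0642 left Ms4a7 at 2.85 and 0.510 CPM against 7.77 and 3.57 in the controls. Treated replicate 1 was close to control replicate 2, and the log2 fold change of -1.70 ± 0.67 (SE) had an adjusted p of 0.336 (edgeR quasi-likelihood test). In the UNC1999 experiment, which is described only, Ms4a7 was at 0.124, 0.409 and 0.156 CPM in treated retinas and at 0.667, 2.07 and 1.33 in controls, a log2 fold change of -2.53 ± 0.56 (SE). Every treated retina was below every control here too.

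The 3 Ms4a6 genes, close paralogs whose transcripts are known from macrophages and microglia, were lower in mean in every retina experiment, but none passed the test. For Ms4a6c, the most abundant member, the DZNep retinas had 0.496 and 0.298 CPM and their controls 4.46, 0.736, 1.98 and 0.879. The groups did not overlap, though the lowest control was near the treated level. The log2 fold change was -2.21 ± 0.82 (SE) with an adjusted p of 0.0835 (edgeR quasi-likelihood test). After Romidepsin Ms4a6c was at 1.64, 1.93 and 1.82 CPM against 2.12, 8.55 and 5.43, so that the treated retinas were nearly alike and control replicate 1 lay just above them. The log2 fold change was -1.59 ± 0.44 (SE) and the adjusted p 0.103 (edgeR quasi-likelihood test). UNC0642 gave 11.0 and 2.91 CPM against 17.0 and 10.9, with treated replicate 1 at the level of control replicate 2 (log2 fold change -0.98 ± 0.53 SE, adjusted p 0.405 by edgeR). With UNC1999 Ms4a6c was at 0.186, 0.637 and 0.704 CPM against 5.54, 3.89 and 0.809, a log2 fold change of -2.66 ± 0.70 (SE), and control replicate 3 was nearest to the treated group.

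Ms4a6d had the smallest fold change of the members tested with DZNep and with Romidepsin. The DZNep retinas had 0.467 and 0.521 CPM, inside the range of their controls at 2.37, 0.414, 0.830 and 0.459 CPM, and the log2 fold change was -1.04 ± 0.74 (SE, adjusted p 0.344 by edgeR). Control replicate 1 held the highest DZNep value of all 3 Ms4a6 genes, and without it their log2 fold changes were -0.98 (Ms4a6b), -1.46 (Ms4a6c) and -0.21 (Ms4a6d). After Romidepsin it was at 1.58, 2.10 and 1.73 CPM against 1.71, 4.70 and 3.48, again with overlap (log2 fold change -0.88 ± 0.36 SE, adjusted p 0.221 by edgeR). After UNC0642 the values were 7.53 and 2.33 CPM against 12.3 and 7.64, where treated replicate 1 was just below control replicate 2 (log2 fold change -0.99 ± 0.49 SE, adjusted p 0.378 by edgeR). In the UNC1999 experiment, whose values chose the family, Ms4a6d was at 0.311, 0.364 and 0.313 CPM in treated retinas and at 2.93, 2.62 and 1.48 in controls, a log2 fold change of -2.81 ± 0.35 (SE). The smallest of those controls was still far above the highest treated retina.

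Ms4a6b had a lower median CPM over the 22 retinas (0.960) than Ms4a6c (1.96) and Ms4a6d (1.72). It was at 0.292 and 0.372 CPM after DZNep against 2.32, 0.322, 0.877 and 0.688, and 0.962, 0.993 and 1.12 CPM after Romidepsin against 0.958, 4.91 and 3.01. In both experiments 1 control retina lay within or below the treated range, and the log2 fold changes were -1.70 ± 0.78 (SE, adjusted p 0.150 by edgeR) and -1.54 ± 0.50 (SE, adjusted p 0.143 by edgeR). After UNC0642 it was at 4.63 and 0.801 CPM against 8.22 and 5.74 (log2 fold change -1.31 ± 0.62 SE, adjusted p 0.366 by edgeR). With UNC1999 it had 0.248, 0.409 and 0.117 CPM against 1.64, 2.00 and 0.381, and it did not pass the filter on low counts.

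The Ms4a4 genes, whose products are known from T cells and other blood cells, had the lowest median CPM in the 10 treated retinas, at 0.0276 for Ms4a4b and 0.247 for Ms4a4c. Ms4a4c had 0.175 and 0 CPM after DZNep against 1.55, 0.184, 1.06 and 0.115, and 0.679, 0.496 and 0.0933 CPM after Romidepsin against 0.274, 3.58 and 2.11. The lowest control overlapped the treated group in both, and the log2 fold changes were -2.50 ± 1.22 (SE, adjusted p 0.172 by edgeR) and -2.30 ± 0.82 (SE, adjusted p 0.175 by edgeR). UNC0642 gave 3.79 and 0.364 CPM against 9.16 and 3.63 (log2 fold change -1.57 ± 0.81 SE, adjusted p 0.392 by edgeR). Without control replicate 2 the Romidepsin log2 fold change was -1.58. With UNC1999 it had 0, 0.318 and 0.0782 CPM against 2.05, 0.982 and 0.190, below the filter.

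Ms4a4b was at 0 counts in both DZNep retinas and in all 3 UNC1999 retinas, where the controls held 2 to 8 and 2 to 4 counts. These counts are too few for a fold. In the Romidepsin experiment it had 1, 1 and 3 counts in treated retinas and 7, 12 and 14 in controls, or 0.0839 ± 0.0485 against 0.619 ± 0.131 CPM (SD, n = 3). With UNC0642 it had 5 and 1 counts against 27 and 10. The treated retinas were below every control in each of the 4 retina experiments. In each experiment taken singly, so were those of 12.5% to 25.2% of all genes tested. The share of genes with this split in all 4 was not counted. With DZNep and UNC1999 the lowest controls held 2 counts, where detection is uncertain. Ms4a4b passed the filter on low counts in none of these comparisons and was not tested there. Chains of the T cell receptor complex were also scarce in the same libraries, whereas Ccl5, of the T and NK cell genes summed below, reached 102 counts with UNC0642. Cd3e, a chain of the T cell receptor complex, reached 8 counts at most, and Cd3d and Cd3g were at 0 in the treated retinas of DZNep and UNC1999. The summed CPM of 12 T and NK cell genes was 4.17 to 6.21 in DZNep controls and 2.75 to 3.38 after DZNep, 4.05 to 6.57 and 3.67 to 4.60 for UNC1999, 9.42 to 13.3 and 4.73 to 7.48 for UNC0642, and 6.37 to 11.2 and 3.90 to 6.07 for Romidepsin. The part of T cells in the Ms4a4b values was not tested.

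**Figure D2:**
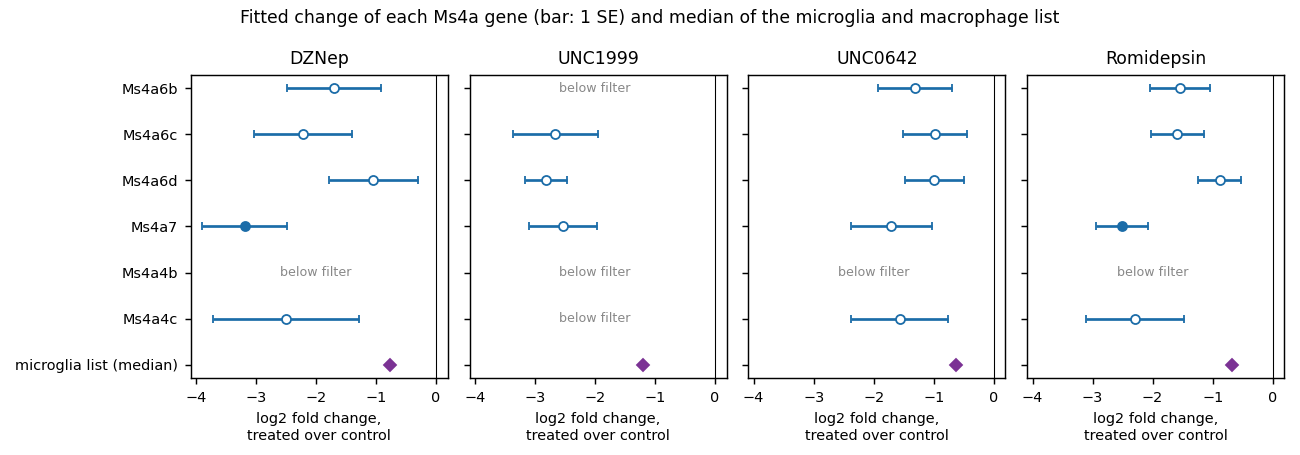
Fitted log2 fold change (treated over control) of each Ms4a gene in the retina experiments, with bars of 1 SE, filled where the gene was called, and the median of the microglia and macrophage list as a diamond. UNC1999 values carry no test. Ms4a7 is called after DZNep (-3.19) and Romidepsin (-2.51), and the fitted values of all members lie below 0.

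As a group, the 6 genes were lower in mean after treatment in each retina experiment. The filter on low counts was passed by 5 of them with DZNep, 3 with UNC1999, 5 with UNC0642 and 5 with Romidepsin, and 1, 0 and 1 were called lower with DZNep, UNC0642 and Romidepsin. With UNC0642 the edgeR quasi-likelihood test called 0 of all 16321 genes (0% lower). There, 1 member and 2407 genes had an unadjusted p under 0.05, and the likelihood ratio test of edgeR called 0 members, while DESeq2 gave them no adjusted p and 0 of them an unadjusted p under 0.05. Without treated replicate 1 the UNC0642 fold changes of the tested members ran from -4.13 to -2.10 on the log2 scale, and without treated replicate 2 from -1.01 to -0.35. The median log2 fold change of the members that passed was -2.21, -1.31 and -1.59 in these experiments, beside -0.00057, -0.0014 and -0.0088 for all genes tested. A gene can pass the filter through its higher controls alone, as the few treated counts of Ms4a7 and Ms4a4c with DZNep show, so these medians are a description and no support. Of the members that passed, every treated retina was below every control for 2 of 5 with DZNep, 3 of 3 with UNC1999, 3 of 5 with UNC0642 and 2 of 5 with Romidepsin. Among all genes tested 21.5%, 13.6%, 25.2% and 12.5% had such a split. With UNC1999, Ms4a6d (5 to 8 treated counts) and Ms4a7 (2 to 9) could pass the filter only if every control was higher. Their split was thus fixed by the filter, and these counts of split members are a description and no support. Ms4a4b had it in each of these experiments without passing the filter, and its lowest controls with DZNep and UNC1999 held 2 counts.

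The summed level of the 6 genes, in which members at 0 also count, lay below the control range in each retina experiment. It was 1.55 and 1.64 CPM after DZNep against 3.40 to 14.5 in 4 controls, a log2 ratio of means of -2.15. UNC1999 retinas had 0.870 to 2.14 CPM against 4.29 to 13.0 (-2.73), and Romidepsin retinas 5.13 to 6.51 against 7.80 to 26.2 (-1.62). UNC0642 retinas had 30.1 and 6.99 CPM against 55.5 and 32.1 (-1.24), and treated replicate 1 was close to control replicate 2. Without treated replicate 2 the UNC0642 ratio was -0.54, and without treated replicate 1 it was -2.65.

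No difference between treatments passed the test. Effects of DZNep, Romidepsin and UNC0642 were compared in pairs by edgeR's quasi-likelihood test over 22 retinas, and none of the 6 members passed in any of the 3 pairs, with adjusted p from 0.477 to 0.992. At an unadjusted p under 0.05 there were 0 members, by the likelihood ratio test too. For Ms4a7 the DZNep effect less the UNC0642 effect was -1.46 ± 1.11 (SE) on the log2 scale, and the Romidepsin effect less the UNC0642 effect was -0.79 ± 0.92. Without treated UNC0642 replicate 1 both turned positive, at 0.32 and 0.97. With errors of this size, differences of several-fold were not detectable.

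Markers of microglia and macrophages differed in the same direction as the Ms4a genes, and their summed level differed by less. The summed CPM of the 27 matched list genes was 300.0 and 338 after DZNep against 387 to 800 in controls, 234 to 299 against 398 to 718 for UNC1999, 714 and 1130 against 1180 and 1700 for UNC0642, and 604 to 829 against 760 to 1229 for Romidepsin. The log2 ratios of the mean sums were -0.80, -1.19, -0.64 and -0.61. In the test, 6 of the 27 were called lower with DZNep, 0 with UNC0642 and 2 with Romidepsin, and none of the 27 was at 0 throughout any of these experiments. Ptprc (CD45) and Emr1 (the macrophage antigen F4/80) were among those called with DZNep, at log2 fold changes of -1.21 and -1.47 (adjusted p 0.026 and 0.024 by edgeR). P2ry12, a marker of resting microglia, was at 5.43 to 7.34 CPM in DZNep controls and 6.16 to 6.25 after DZNep. It was at 4.82 to 6.86 CPM in UNC0642 controls and 1.46 to 3.24 after UNC0642 (log2 fold change -1.29, adjusted p 0.299 by edgeR), at 7.21 to 10.1 and 2.70 to 5.15 for Romidepsin (-1.22, adjusted p 0.066 by edgeR) and at 2.00 to 5.62 and 2.89 to 4.72 for UNC1999. With UNC0642 and Romidepsin these values of P2ry12 lay within the range of those of the Ms4a genes tested. With DZNep and UNC1999 the log2 fold changes of P2ry12 were -0.06 and -0.16. Tmem119 and Cx3cr1, microglia genes of the same list, were lower in mean in each retina experiment, and their differences from P2ry12 were not tested. Their log2 fold changes were -0.34 and -0.55 with DZNep and -0.49 and -0.23 with UNC0642. With Romidepsin they were -0.67 and -0.77, and with UNC1999 -1.21 and -1.09.

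The Ms4a sum was also lower as a share of the microglia and macrophage sum. With DZNep it made up 0.850% to 1.82% in controls and 0.458% and 0.546% in treated retinas, with UNC1999 1.08% to 1.93% and 0.346% to 0.714%, and with Romidepsin 1.03% to 2.31% and 0.785% to 0.896%. For UNC0642 the shares were 3.27% and 2.72% in controls and 2.66% and 0.980% in treated retinas. Thus no treated retina reached its own controls, although UNC0642 treated replicate 1 was close. Relative to Csf1r, the receptor that microglia and macrophages need to survive, Ms4a7 stood at 2.98 to 5.06 counts per 100 Csf1r counts in DZNep controls and 0.335 and 1.23 in treated retinas. The values were 3.10 to 3.89 and 0.542 to 1.67 for Romidepsin and 4.16 to 6.56 and 1.10 to 3.61 for UNC0642. With UNC1999, 1.38 to 4.56 in controls met 0.406 to 1.40 in treated retinas, so these groups overlapped. Ms4a6c per 100 Csf1r counts overlapped in the Romidepsin experiment, at 2.91 to 8.65 in controls and 2.95 to 4.23 in treated retinas, with UNC0642, at 12.7 to 14.3 and 6.27 to 14.0, and with UNC1999, at 2.36 to 11.5 and 0.609 to 2.77. It did not overlap with DZNep, at 1.78 to 6.05 and 0.823 to 1.42. Csf1r and the list also held counts in sorted rods, with Csf1r at 18.2 to 26.8 CPM there. A ratio to the list or to Csf1r is therefore not a level per microglial cell, and the cause of its differences was not tested.

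**Figure D3:**
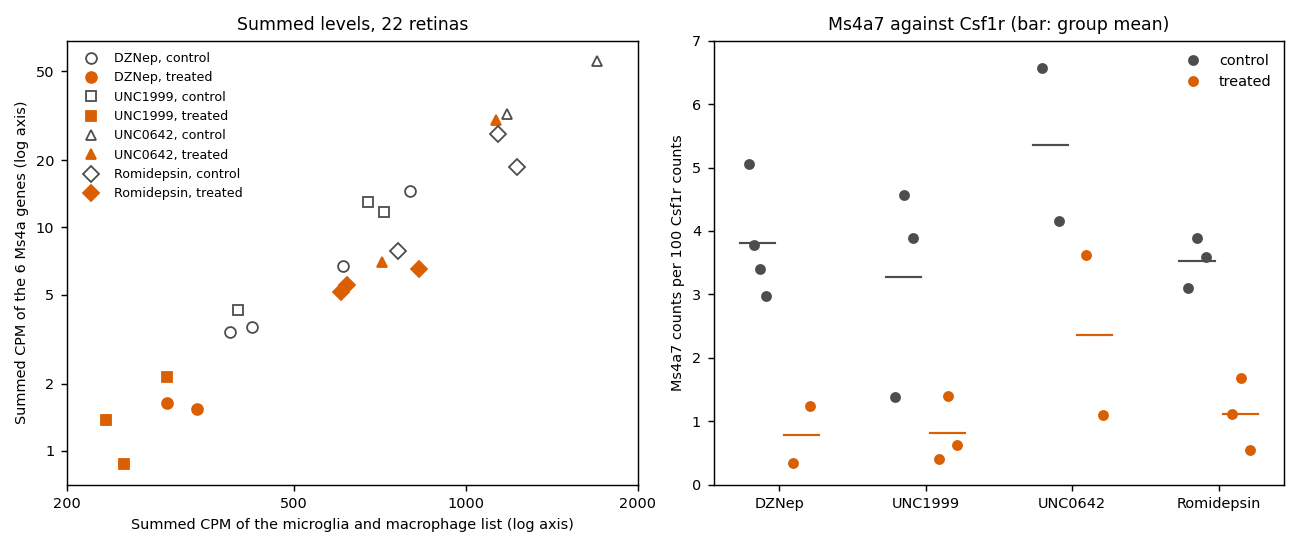
Left, summed CPM of the 6 Ms4a genes against summed CPM of the microglia and macrophage list in 22 retinas (both axes logarithmic), with open symbols for controls and filled orange symbols for treated retinas. Right, Ms4a7 counts per 100 Csf1r counts in each retina with a bar at the group mean. Both sums rise together from 0.870 and 252 CPM in 1 UNC1999 retina to 55.5 and 1700 CPM in 1 UNC0642 control, and the Ms4a7 ratio is lower in treated retinas with overlap in the UNC1999 experiment.

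Markers of other immune cells varied too. Ccr2, the chemokine receptor of blood monocytes, ranged from 0.229 to 2.14 CPM in DZNep controls and was 0.0875 and 0.149 after DZNep. In UNC1999 controls it was 0.667 to 15.1 CPM and in treated retinas 0.0621 to 0.273, and in the UNC0642 experiment it was 9.86 and 20.5 CPM in controls and 2.77 and 17.2 in treated retinas. The summed level of 8 monocyte and granulocyte genes was 1.33 to 27.5 CPM in UNC1999 controls and 0.373 to 0.782 in treated retinas, and 18.1 to 51.1 and 7.58 to 36.1 for UNC0642. It was 1.78 to 13.1 and 2.19 to 5.88 for Romidepsin, and 0.994 to 4.55 and 2.10 to 2.31 for DZNep. For 8 perivascular macrophage genes the sums were 20.9 to 26.9 CPM after DZNep against 22.5 to 25.3, 27.9 to 32.1 after Romidepsin against 29.0 to 36.5, 20.2 to 23.9 after UNC1999 against 22.1 to 25.5, and 20.8 to 24.2 after UNC0642 against 24.4 to 50.6. Mrc1, the mannose receptor of these macrophages, was at 0.781 and 12.5 CPM in the UNC0642 controls and 0.437 and 1.12 in treated retinas. Sums of 5 dendritic cell genes were 12.0 to 13.4 against 15.0 to 16.5 CPM and 17.2 to 18.4 against 18.3 to 20.5 for DZNep and Romidepsin, and those of 5 B cell genes stayed at or below 1.89 CPM in all retinas. Rod genes moved the other way, since the summed CPM of 10 rod genes was 17831 to 29932 in DZNep controls and 54968 to 56523 after DZNep, where 9 of the 10 were called higher (1.02% of all genes were). With Romidepsin the rod sums were 15066 to 24554 and 24190 to 32014. The part of these cell types in the Ms4a values was not tested.

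The mix of the members differed between arms with DZNep and Romidepsin. In controls Ms4a6c took 37.9% to 41.6% of the summed CPM per kb, from group means. Ms4a6d made up 25.5% of the sum in Romidepsin controls and 39.5% after Romidepsin, and 20.8% and 41.5% with DZNep. Its share was 28.8% and 32.3% with UNC0642 and 30.4% and 29.2% with UNC1999. Ms4a7 made up 10.0% and 5.1%, and 16.5% and 9.2%, with Romidepsin and DZNep. With UNC0642 and UNC1999 the Ms4a7 share was 6.4% and 6.9% in controls and 4.3% and 7.9% after treatment. These shares rest on the few counts given above and were not tested.

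**Figure D4:**
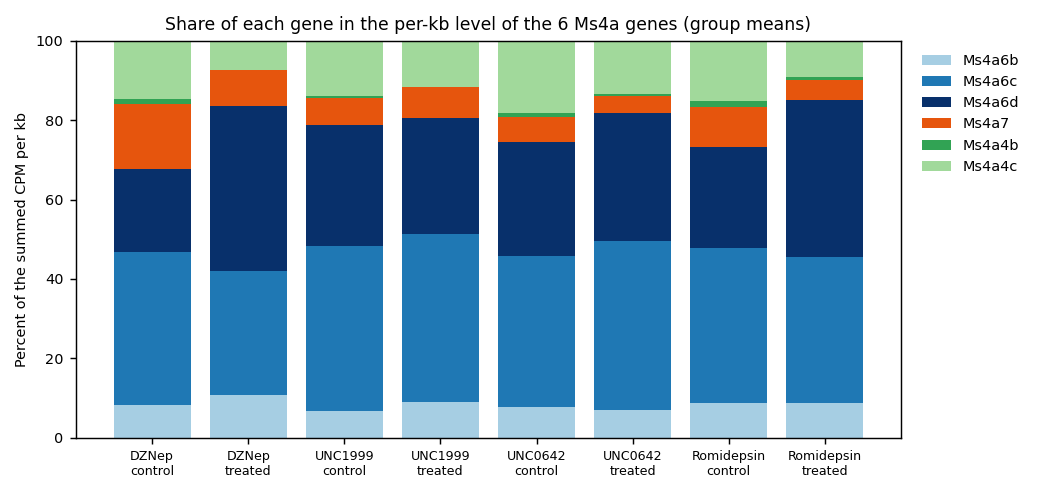
Share of each gene (percent) in the summed CPM per kb of the 6 Ms4a genes, from group means, for controls and treated retinas of the 4 retina experiments. Ms4a6c and Ms4a6d make up most of each column, and the Ms4a6d share is 41.5% after DZNep and 39.5% after Romidepsin against 20.8% and 25.5% in the controls.

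Across single retinas the members varied together. To leave out the treatment, each log2 CPM was taken as its deviation from its own group mean in 22 retinas of 8 groups. These retinas share library series and differ in depth, so the correlations are a description. Among Ms4a6b, Ms4a6c, Ms4a6d and Ms4a4c, Pearson's r of the deviations was 0.80 to 0.91. Ms4a7 reached 0.46 to 0.66 with these genes, and Ms4a4b, with its few counts, 0.098 to 0.19 with any member. Over 14949 genes with a mean of at least 1 CPM, the pattern most like that of Ms4a6c was Fyb (0.954), an adapter protein of immune cells, followed by Lilrb4 (0.943), Gm885 (0.942), Axl (0.938) and Sla (0.934). For Ms4a6d it was Inpp5d (0.963), the lipid phosphatase SHIP1, followed by Csf1r (0.913), Cyp4v3 (0.911), Ms4a6b (0.906) and C1ra (0.900). Ms4a6b was most like Cyp4v3 (0.969), Elf1 (0.923), Arhgap30 (0.920), Itgam (0.911), which encodes the integrin CD11b, and Ptgs1 (0.907).

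In sorted rods, where the 10 rod genes summed to 51980 to 79774 CPM in controls, the Ms4a genes were near the detection limit. Ms4a6b had 4 and 25 counts in controls and 5 and 0 after GSK2879552. Ms4a7 had 3 and 11 against 9 and 0 counts, Ms4a6d 2 and 10 against 0 and 0, Ms4a4c 0 and 8 against 4 and 0, and Ms4a6c 3 and 4 against 2 and 0. Ms4a4b was at 0 in all 4 libraries. Treated replicate 2 held 0 counts of every member, which allows up to 0.303 CPM of each. No member passed the filter, and 0 of 14478 genes were called in this comparison (0% lower), with 711 at an unadjusted p under 0.05 and with 24 called lower by the likelihood ratio test and 15 by DESeq2. Treated libraries were below both controls for Ms4a6b, Ms4a6c and Ms4a6d, none of which was tested, and for 17.3% of the genes tested. The summed level was 1.61 and 3.40 CPM in controls and 1.04 and 0 CPM in treated libraries. Markers of microglia were also scarce there. Cx3cr1, the fractalkine receptor of microglia, was at 0.936 and 1.41 CPM in controls and 0.706 and 0.260 in treated libraries, Aif1 at 0.234 to 0.535 CPM over all 4, and Emr1 at 0 after GSK2879552. Csf1r stood at 18.2 to 26.8 CPM, and the list as a whole at 85.5 and 106 CPM in controls and 80.4 and 86.6 in treated libraries.

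Of 12 other genes of the family, including the related Tmem176a and Tmem176b, none was called in any experiment tested. The filter was passed by 2 with DZNep, 3 with UNC0642 and 2 with Romidepsin. Tmem176b, a relative known from dendritic cells, was at 57.5 to 74.6 CPM in DZNep controls and 47.8 to 60.0 after DZNep (log2 fold change -0.30, adjusted p 0.099 by edgeR). After Romidepsin it was at 100.3 to 137 CPM against 75.6 to 117 (log2 fold change 0.14, adjusted p 0.739 by edgeR). With UNC1999, described only, Tmem176b was at 40.1 to 44.1 CPM against 54.0 to 87.4 in controls (log2 fold change -0.87). Tmem176a was at 14.4 to 17.9 against 21.0 to 35.6 there (-0.95), and its log2 fold change with Romidepsin was 0.15. Ms4a14 reached 20 counts in a UNC0642 control and was at 0 in both DZNep retinas. With UNC0642 it was at 0.822 to 1.03 CPM in controls and 0 to 0.167 in treated retinas. The log2 fold change was -3.20 (adjusted p 0.299 by edgeR), in a comparison that called 0 of 16321 genes. With Romidepsin Ms4a14 was at 0.264 to 0.374 CPM in controls and 0 to 0.0566 after treatment. With UNC1999 it was at 0 in controls and at most 0.0910 CPM in treated retinas. The B cell gene Ms4a1 had at most 4 counts in any retina, and Ms4a2, Ms4a3, Ms4a5, Ms4a8a, Ms4a10 and Ms4a13 were at 0 throughout the Romidepsin experiment.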

How the data were processed

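The authors trimmed reads with BBDuk, aligned them to NCBIM37 with HISAT2 2.2.1 and counted them per gene of Ensembl release 67 with HTSeq 0.11.2, and they deposited raw counts per gene for all libraries. Whether counting used strand is not given in the sources used here. Symbols and lengths came from the reference annotation and gene table (37205 of 37991 genes had a symbol).

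Each treatment was compared with its own controls with edgeR 4.0.16 (R 4.3.3): filterByExpr, trimmed mean of M-values, quasi-likelihood F test, Benjamini-Hochberg over all genes tested, with calls at an adjusted p under 0.05 and a change of more than 1 on the log2 scale either way. The study's likelihood ratio test, DESeq2 1.42.0, other size factors, no filter, a replicate block, a joint fit of 22 retinas and leaving out each library were alternatives. The SE is the log2 fold change over the square root of F. The code was tested on simulated data. CPM came from TMM-scaled library sizes. Within each arm of each experiment, no 2 libraries were duplicates by a chi-square distance of their counts. Pairs across arms or experiments were not compared.

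Members, gene lists and motifs were chosen with earlier results of these data known. The members are always named, and so are, for the 3 members with the highest mean CPM, the 5 genes with the most similar deviations from group means. Other genes are named where a result turns on them, after their values were seen.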

Additional observations from a re-analysis of the deposited data

How the results depend on the processing

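All 188 fold changes of members in alternative fits of their own experiment were below 0. They include the UNC1999 comparison, whose values chose the family, and refits that share most libraries. Their common direction is thus a description and no support. Some fits gave a member no value because it did not pass the filter or DESeq2 gave it no adjusted p, which held for every member with UNC0642. The differences of effects called 0 members throughout. Some turned in sign when 1 library was left out. On the log2 scale, DZNep less Romidepsin ran from -0.71 to 0.58 (Ms4a6b), -1.15 to 0.14 (Ms4a6c), -0.49 to 0.68 (Ms4a6d), -1.58 to 0.30 (Ms4a7) and -4.58 to 0.50 (Ms4a4c). DZNep less UNC0642 ran from -1.10 to 1.44 (Ms4a6b), -1.86 to 0.080 (Ms4a6c), -0.63 to 1.08 (Ms4a6d), -2.38 to 0.32 (Ms4a7) and -5.30 to 1.65 (Ms4a4c). Romidepsin less UNC0642 ran from -0.97 to 1.58 (Ms4a6b), -1.26 to 0.68 (Ms4a6c), -0.49 to 1.22 (Ms4a6d), -1.52 to 0.97 (Ms4a7), -1.26 to 0.67 (Ms4a4b) and -1.55 to 1.83 (Ms4a4c). Counts of members called moved. With DZNep (1 called) they were 2 under the likelihood ratio test, 2 under DESeq2, 2 without the filter and 2 in the joint fit of 22 retinas (with 162, 91, 148 and 62 genes called lower in all, against 113), and 0 to 1 when 1 library was left out. With Romidepsin (1 called) they were 3, 2, 3 and 2 in the same order (217, 164, 156 and 208 genes in all, against 25), and 0 to 3 when 1 library was left out (3 without control replicate 1). With UNC0642 (0 called) they were 3 without the filter, where 132 genes of 23117 were called lower against 0 of 16321, and 0 to 0 with a library left out. The cause of these moves was not tested. The summed level of the rods moved from -2.27 to -1.27 without treated replicate 2. With 1 library left out it ran from -2.38 to -1.52 (DZNep, the latter without control replicate 1), -3.11 to -2.45 (UNC1999), -2.65 to -0.54 (UNC0642), -1.97 to -1.21 (Romidepsin) and -2.71 to -1.27 (rods, where no ratio exists without treated replicate 1).

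The labels do not say whether replicate numbers pair the samples. Deviations of same-numbered libraries correlated at 0.21, -0.047 and -0.28 with Romidepsin and -0.28, 0.23 and -0.042 with UNC1999. They correlated at -0.21 and 0.020 with DZNep, 0.21 with UNC0642 and -0.079 in rods. With 2 libraries in each arm (UNC0642, rods) both pairs share 1 value, so these correlations do not settle pairing. With a replicate block the members called were 0 with DZNep, 0 with Romidepsin and 5 with UNC0642 (adjusted p for Ms4a7 0.061, 0.054 and 0.0018), where 56, 16 and 94 genes were called lower in all. A block on the rod sum had no value, since a treated library is at 0. Precision is limited by 0 to 413 counts per gene and library and by 2 to 4 libraries a group.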
